A study of Homo sapiens with 24 samples.

Results

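The comparison set the 3 RNA-seq libraries of cells expressing miR-133a, a miRNA of muscle, directly against the 3 libraries of cells expressing miR-155, a miRNA of the immune system, and left the empty vector out of the test. The 6 libraries were taken by their labels from the 24 of the series, and all 13560 genes of the 29794 in the count table that passed a filter on low counts entered the test. All libraries came from Flp-In T-REx 293 cells, which derive from human embryonic kidney and carry adenovirus DNA, after transduction with a lentiviral vector. In that vector a doxycycline-inducible CMV promoter drives GFP, and a synthetic miRNA hairpin lies in the intron of its 5'UTR. Both groups, and the 3 libraries of the vector without a hairpin that are shown beside them, went through selection in geneticin (1 mg/mL, 6 days) and induction with doxycycline (1 µg/mL, 7 days). They therefore share the vector, GFP and both drugs, and differ in the hairpin. Each replicate was a transduction and culture of its own, and 1000 ng of RNA went into a library.

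miRNAs guide Argonaute proteins to messenger RNAs by pairing between bases 2 to 8 of the miRNA, the seed, and a matching site that is usually in the 3'UTR, and paired transcripts are decayed faster or translated less. miR-133a is made in skeletal and cardiac muscle from the same primary transcripts as miR-1 and is known for targets in the actin cytoskeleton and in splicing. miR-155 is induced in activated lymphocytes and macrophages and is known for targets in immune signalling and transcriptional control, among them BACH1 and JARID2. In the comparison each group served as the control of the other.

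The mature sequences, from the RefSeq table of GRCh38.p14, are shown to display the seeds on which the comparison rests, with the seed in capitals. The seeds differ, and so do the sites that pair with them.
miR-133a: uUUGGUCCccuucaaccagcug
miR-155: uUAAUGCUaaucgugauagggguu
An 8mer site pairs with the whole seed and has an A after it, a 7mer-m8 site lacks the A, and a 7mer-A1 site lacks the pair to the last seed base.

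Shown next are 8mer sites in the 3'UTR of some of the genes described below. They were picked from genes with a large change that were lower under the miRNA whose match they carried. Sites are written 5' to 3' on the strand of the transcript, in capitals. For miR-133a these were FTL at chr19:49470106-49470113 (plus strand), TAGLN2 at chr1:159888340-159888347 (minus strand), CNN2 at chr19:1039029-1039036 (plus strand) and PTBP1 at chr19:811857-811864 (plus strand), all on GRCh37.
FTL: aacaagccttGGACCAAAtggaaataaa
TAGLN2: ctttcccctgGGACCAAAatttaggggc
CNN2: atacgactgtGGACCAAAcgcaataaaa
PTBP1: ttcaaattttGGACCAAAgtctcatttc
For miR-155 they were JARID2 at chr6:15520628-15520635 and chr6:15521430-15521437 (plus strand), HMGCS1 at chr5:43289559-43289566 (minus strand), TWF1 at chr12:44188819-44188826 (minus strand) and BACH1 at chr21:30717332-30717339 (plus strand).
JARID2, first site: attttgttttAGCATTAAactgttgaac
JARID2, second site: ttcacaagtcAGCATTAAtctttctttt
HMGCS1: actggcacagAGCATTAAtcatacacct
TWF1: tttttttaatAGCATTAAaattgcagat
BACH1: taaacagtttAGCATTAAgggtttctat
TAGLN2 held a further 7mer-m8 site for miR-133a, and BACH1 held 3 further 7mer-m8 sites for miR-155. Other genes described below held 8mer sites that are not shown. Among them were SCARA5, LASP1 and PTBP3 for miR-133a, and ZNF652, TAB2 and E2F2 for miR-155. PTBP2 also held an 8mer for miR-133a, but was higher with miR-133a.

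The exon counts of the 6 libraries summed to between 13256937 and 15050704 reads. The labelled cell type was checked against its markers. INA, VIM, KRT8 and KRT18, known in HEK293 cells, were at 68.6 CPM or more in every library, and the other 2 markers, PAX2 and NEFM, at 5.28 to 11.1 and 2.37 to 4.13 CPM, where CPM is the read count scaled to library size with TMM factors. Of 12 markers of muscle cells, 9 stayed under 1 CPM in every library and ACTC1 and TNNT2 had 0 reads, and the summed level was 30.6 to 35.2 CPM with miR-133a and 36.7 to 41.5 CPM with miR-155. Of 12 markers of immune cells, 11 stayed under 1 CPM, with MS4A1 at 0 reads, with sums of 4.23 to 5.09 CPM with miR-133a and 2.48 to 3.21 CPM with miR-155. The miR-155 replicate 2 stood apart. Across genes, the chi-square divided by its degrees of freedom was 17.8 and 20.2 between it and the other miR-155 libraries, and at most 5.87 among the miR-133a libraries. The difference of the median log2 deviation between the top and the bottom tertile of exon length was -0.259 in that library and -0.0753 in miR-133a replicate 2, whereas the other 4 libraries lay between 0.0571 and 0.0989. The part of this length trend in the results below was not tested beyond leaving out these libraries.

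Between the miRNAs, 2268 genes (16.7% of those tested) passed edgeR's quasi-likelihood test at a Benjamini-Hochberg adjusted p-value under 0.05. Of these, 1165 (8.59%) were lower and 1103 (8.13%) higher with miR-133a than with miR-155. Most differences were small. The median size among the called genes was 0.484 on the log2 scale, 1179 of them were under 0.5, and 265 reached at least 1 (106 lower, 0.782% of genes tested, and 159 higher, 1.17%). The 2 groups of 3 libraries did not overlap in CPM for 2267 of the 2268 called genes, and for 5066 (37.4%) of all genes tested.

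The count of called genes depended on single libraries. Without miR-155 replicate 2 it rose to 4302 (31.2%, 2232 lower and 2070 higher), and without both libraries numbered 2 to 4533 (2263 and 2270). It fell to 980 without miR-133a replicate 1 (456 and 524), to 1280 without miR-133a replicate 2 (658 and 622), to 994 without miR-133a replicate 3 (521 and 473) and to 1388 without miR-155 replicate 1 (718 and 670). With the replicate number as a block, 4485 genes were called (33.1%, 2258 lower and 2227 higher), among them all of the 2268, in the same direction. After TMM scaling, which centres the bulk of the genes, the median over all genes tested was -0.0115. Genes named below as called kept the call when each library was left out in turn, unless the libraries without which it was lost are given.

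**Figure D1:**
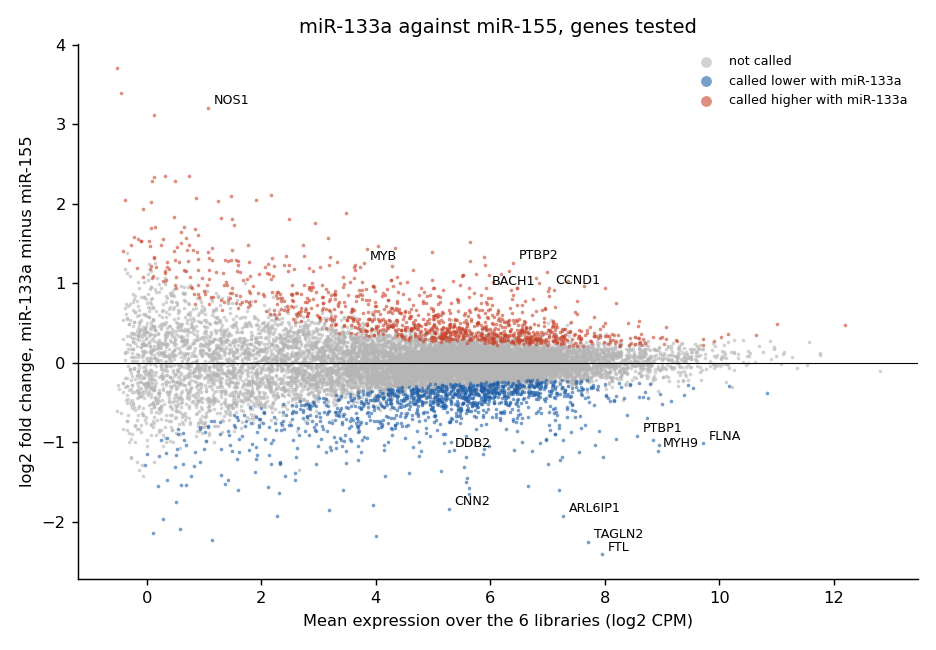
Each point is a gene tested, with the mean expression over the 6 libraries in log2 CPM on the horizontal axis and the log2 fold change of miR-133a minus miR-155 on the vertical axis. Blue points passed the edgeR test lower with miR-133a and red points higher. TAGLN2 and FTL are the lowest of the abundant genes, and the largest changes in the other direction, such as NOS1, belong to genes of low level.

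The genes lowest with miR-133a relative to miR-155 included abundant transcripts with a miR-133a site. FTL encodes the light chain of ferritin, which stores iron. It was at 72.2, 83.5 and 77.2 CPM in the miR-133a libraries and at 345, 559 and 335 CPM in the miR-155 libraries. The log2 fold change was -2.41 with an SE of 0.182 (edgeR adjusted p 5.75e-05). All miR-133a libraries were below all miR-155 libraries, and the highest value was that of miR-155 replicate 2. The annotation lists 16 pseudogenes named after FTL, which could take reads from it. TAGLN2, or transgelin 2, is an actin-binding protein of the calponin family. It was at 66.7, 73.0 and 76.7 CPM with miR-133a and at 340, 332 and 361 CPM with miR-155 (log2 fold change -2.26, SE 0.0793, edgeR adjusted p 1.26e-06). The groups lay far apart, with a spread within each that was small beside the gap. CNN2, or calponin 2, of the same family, was at 16.9, 15.7 and 17.6 CPM against 58.3, 59.1 and 61.7 CPM (log2 fold change -1.84, SE 0.0832, edgeR adjusted p 5.57e-06). SCARA5, a scavenger receptor that binds ferritin, was at 5.32, 5.76 and 5.97 CPM against 27.3, 15.2 and 34.6 CPM (log2 fold change -2.18, SE 0.272, edgeR adjusted p 8.02e-04), and it too held a miR-133a site.

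Other genes at this end held no 8mer or 7mer-m8 site for miR-133a in the 3'UTR. ARL6IP1, a membrane protein of the endoplasmic reticulum, was at 60.4, 65.7 and 65.3 CPM with miR-133a and at 227, 277 and 223 CPM with miR-155 (log2 fold change -1.93, SE 0.0941, edgeR adjusted p 7.53e-06). Its level in the empty vector cells was 217, 177 and 204 CPM, so the miR-133a libraries were the ones that stood apart. VAT1L was at 3.6, 3.21 and 4.68 CPM against 14.2, 12.4 and 14.9 CPM (log2 fold change -1.85, SE 0.163), while the empty vector cells were at 1.73, 2.5 and 2.73 CPM. For this gene the miR-155 libraries stood apart from the other 2 groups. CEND1 and EVA1B, at means of 0.701 and 1.95 CPM with miR-133a, completed the 8 lowest, with log2 fold changes of -2.23 and -1.93. CEND1 rested on few reads, 3 to 18 in the miR-133a libraries.

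The genes highest with miR-133a relative to miR-155 were at low levels, and most had no miR-155 site. NOS1, the neuronal nitric oxide synthase, had the largest difference. It was at 3.52, 2.63 and 4.41 CPM with miR-133a and at 0.783, 0.153 and 0.142 CPM with miR-155, from 12, 2 and 2 reads in the latter (log2 fold change 3.20, SE 0.458, edgeR adjusted p 0.00173). ATP2B3, a calcium pump of the plasma membrane, was at 7.12, 5.98 and 7.93 CPM against 1.89, 1.30 and 1.63 CPM (log2 fold change 2.11, SE 0.204), and its 3'UTR held sites of both miRNAs. CHD5, a chromatin remodeller of neurons, was at 17.8, 14 and 19.6 CPM against 4.96, 3.21 and 5.59 CPM (log2 fold change 1.89, SE 0.2). RET, a receptor tyrosine kinase of kidney and nerve development, was at 3.67, 3.50 and 3.66 CPM against 0.848, 0.612 and 1.56 CPM (log2 fold change 1.83, SE 0.285). RFLNA, PRR35, ADCYAP1R1 and SLC9A2 completed the 8 highest, with log2 fold changes of 1.80 to 2.1 and levels under 7 CPM in every library. None of these 8 had a site for miR-155 apart from ATP2B3. In the empty vector cells RET was at 3.90, 3.03 and 2.52 CPM and NOS1 at 2.85, 2.77 and 1.82 CPM, nearer to the miR-133a libraries, whereas CHD5 was at 7.13, 8.5 and 9.30 CPM, nearer to the miR-155 libraries.

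Of 38 tested genes in a list of known miR-133a targets, 11 were lower and 4 higher with miR-133a than with miR-155, beside 8.59% and 8.13% of all genes tested, and the median was -0.0949 on the log2 scale. The 11 lower genes included TAGLN2, CNN2 and FTL. GSTP1, a glutathione transferase, was at 5.69, 7.37 and 7.39 CPM with miR-133a and at 22.4, 27.8 and 20.6 CPM with miR-155 (log2 fold change -1.79, SE 0.151, edgeR adjusted p 1.10e-04). PNP, the purine nucleoside phosphorylase, was at 102, 95.6 and 93.9 CPM against 180, 190 and 172 CPM (log2 fold change -0.90, SE 0.0708), with a 7mer-A1 site only. Both groups of values were tight and did not overlap. LASP1 and CAV1, an actin-binding scaffold and the coat protein of caveolae, followed with log2 fold changes of -0.75 and -0.53, and ARPC5, a subunit of the ARP2/3 complex that nucleates actin branches, with -1.18 (89.5, 98.7 and 90.1 CPM against 197, 234 and 200 CPM). ARPC5 held a 7mer-A1 site for miR-133a and a 7mer-m8 site for miR-155. NFATC4, a transcription factor of cardiac growth, was lower, at a log2 fold change of -0.74. BCL2L1 and CCN2 were lower as well, but BCL2L1 lost the call in every fit without a library except that without miR-155 replicate 2, and CCN2 without miR-133a replicate 1. Other widely cited targets did not pass the test, with log2 fold changes of -0.22 for RHOA, -0.21 for CDC42, 0.06 for SRF, 0.13 for NELFA, 0.03 for IGF1R and -0.05 for MCL1. With the replicate block RHOA and CDC42 were called lower, at edgeR adjusted p-values of 0.00392 and 0.00745.

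The 4 known miR-133a targets that were higher with miR-133a were PTBP2, FSCN1, KCNQ1 and HCN4. PTBP2, the neuronal polypyrimidine tract binding protein, was at 123, 123 and 111 CPM with miR-133a and at 49.3, 52.5 and 47.0 CPM with miR-155 (log2 fold change 1.26, SE 0.0775, edgeR adjusted p 2.77e-05), and its 3'UTR held a miR-133a site. The empty vector cells, at 56.6, 40.7 and 51.1 CPM, lay with miR-155. Its paralogue PTBP1, which is known to keep PTBP2 low through a skipped exon, was at 261, 253 and 268 CPM with miR-133a against 482, 523 and 471 CPM with miR-155 (log2 fold change -0.92, SE 0.0707, edgeR adjusted p 6.55e-05). PTBP3, another paralogue, was at 70.4, 69.2 and 68.0 CPM against 105, 108 and 114 CPM (log2 fold change -0.66, SE 0.0668). So 2 paralogues were lower and 1 was higher, each with no overlap between the groups. FSCN1, or fascin, which bundles actin, was higher by 0.66 (143, 152 and 143 CPM against 93.9, 85.2 and 98.4 CPM). KCNQ1 and HCN4, ion channels of the heart, were higher by 1.30 and 1.44 at levels under 5 CPM, and HCN4 lost the call without miR-133a replicate 1 or 3. Neither FSCN1, KCNQ1 nor HCN4 held an 8mer or 7mer-m8 site for miR-133a here.

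Of 40 tested genes in a list of known miR-155 targets, 23 were higher and 1 lower with miR-133a, against 8.13% and 8.59% of all genes tested, with a median of 0.357 on the log2 scale. The count of higher genes lay between 17 and 25 when a library was left out. JARID2, a subunit of the Polycomb complex PRC2, was at 88.0, 73.5 and 87.6 CPM with miR-133a and at 38.6, 28.1 and 39.2 CPM with miR-155 (log2 fold change 1.23, SE 0.131, edgeR adjusted p 3.48e-04). MYB, a transcription factor of blood progenitors, was at 19.0, 20.9 and 17.8 CPM against 7.96, 6.96 and 9.28 CPM (log2 fold change 1.25, SE 0.131, edgeR adjusted p 3.26e-04). SKI, a repressor of SMAD signalling, was at 225, 209 and 219 CPM against 110, 88.6 and 121 CPM (log2 fold change 1.03, SE 0.107). In each of the 3 genes the lowest value was that of miR-155 replicate 2, and the groups did not overlap. BACH1, a repressor of antioxidant genes, was at 85.7, 73.6 and 79.6 CPM against 43.9, 37.4 and 43.2 CPM (log2 fold change 0.94, SE 0.0926, edgeR adjusted p 2.48e-04). CEBPB, a transcription factor of myeloid cells, was at 33.9, 45.2 and 38.9 CPM against 21.5, 21.1 and 22.5 CPM (log2 fold change 0.86, SE 0.111). ZNF652, SMAD5, MYO10, CUX1, TSPAN14, WEE1, ARID2, PICALM, TAB2, LRRC59 and SDCBP followed, from 0.96 for ZNF652 to 0.48 for SDCBP.

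A few known miR-155 targets were scarce in these cells. SOCS1, a feedback inhibitor of cytokine receptors, was at 0.584 to 1.02 CPM with miR-133a and at 0.652 to 0.841 CPM with miR-155, and INPP5D, the phosphatase SHIP1, at 0.450 to 1.53 CPM and at 0.918 to 2.15 CPM. Neither passed the test, with log2 fold changes of 0.19 (SE 0.325) and -0.66 (SE 0.427), with SEs larger than that of JARID2. GABARAPL1, which held sites of both miRNAs, was the 1 gene of the list called lower (-0.42), and it lost the call in each fit without a library apart from that without miR-155 replicate 2. Of the transcription factors the study singled out, SP3 was lower, at a log2 fold change of -0.34 and lost the call without miR-133a replicate 1 or 3 or miR-155 replicate 1, and FLI1 and KLF3 had log2 fold changes of 0.01 and -0.15. The study named these 3 from cells with miR-133a set against the empty vector, not against miR-155. Against the empty vector, in the fit of all 18 libraries of the batch, 2 of the 3 were lower with miR-133a (median -0.412). With miR-155, 1 was lower (median -0.0812).

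**Figure D2:**
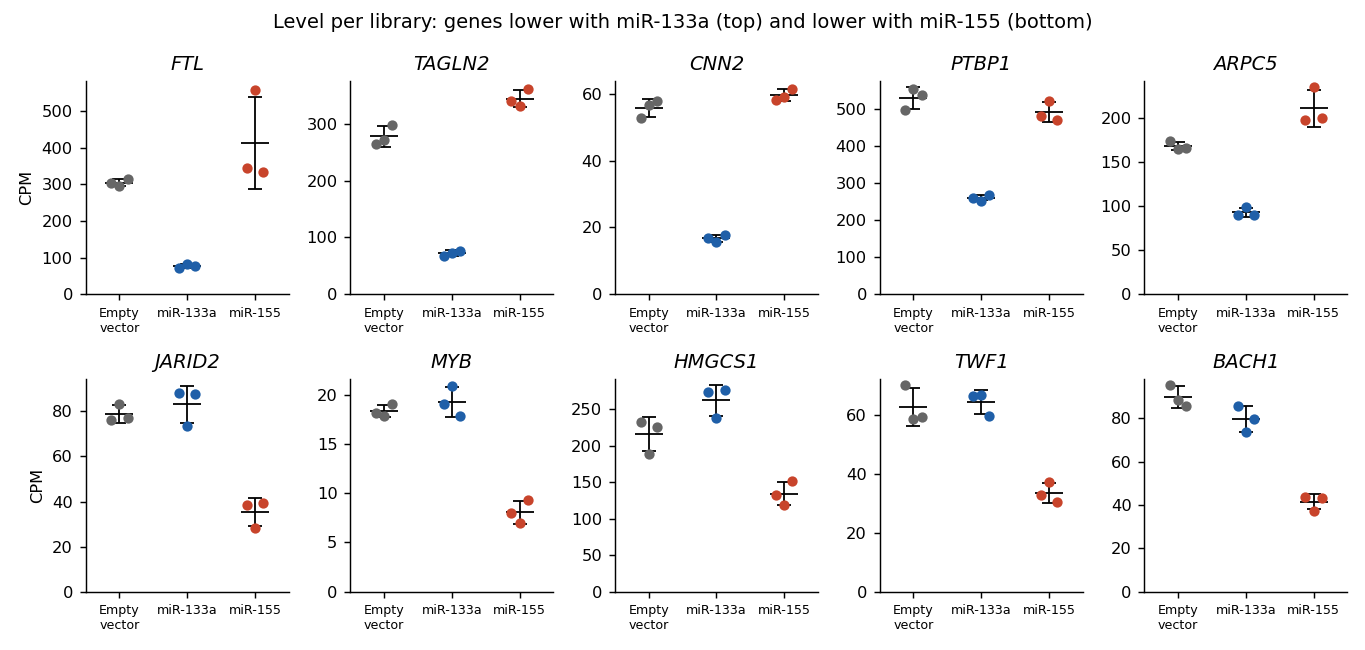
Level in CPM of 10 genes in the empty vector (grey), miR-133a (blue) and miR-155 (red) libraries; points are libraries, bars the mean and SD of 3. In the top row the miR-133a libraries are the low ones and the empty vector lies with or near miR-155, and in the bottom row the miR-155 libraries are the low ones and the empty vector lies with or near miR-133a.

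Genes of the actin cytoskeleton were mostly lower with miR-133a. Of 55 tested, 21 were lower and 2 higher (8.59% and 8.13% of all genes), 48 had a log2 fold change below 0, and the median was -0.236. The count of lower genes was 16 to 26 with a library left out, and 33 with the replicate block. TAGLN2 and CNN2 led. The tropomyosins TPM4, TPM1 and TPM3, which coat actin filaments, were lower, with log2 fold changes of -1.19, -1.05 and -0.41, the last not called without any 1 of the miR-133a libraries. TPM4 was at 149, 148 and 159 CPM with miR-133a against 332, 337 and 367 CPM with miR-155 (SE 0.0724, edgeR adjusted p 2.77e-05). MYH9, the heavy chain of non-muscle myosin IIA, was at 328, 280 and 310 CPM against 733, 535 and 702 CPM (log2 fold change -1.11, SE 0.121, edgeR adjusted p 3.86e-04). FLNA, a filamin that links actin to the membrane, was at 554, 540 and 577 CPM against 1290, 890 and 1180 CPM (log2 fold change -1.01, SE 0.126, edgeR adjusted p 8.00e-04) and held no 8mer or 7mer-m8 site. In MYH9 and FLNA the miR-155 libraries varied more than the miR-133a libraries, and the groups did not overlap. WASF2 and CORO1C, which activate and recycle the ARP2/3 complex, were lower, with log2 fold changes of -0.89 and -0.86, and both held miR-133a sites. The actins themselves did not pass the test, with log2 fold changes of -0.24 for ACTB (SE 0.127) and 0.08 for ACTG1 (SE 0.0875), and neither did MYH10 (-0.09).

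The 2 actin genes that were higher with miR-133a were TWF1 and FSCN1. TWF1, or twinfilin, which binds actin monomers, was at 66.5, 66.8 and 59.7 CPM with miR-133a against 32.9, 37.2 and 30.5 CPM with miR-155 (log2 fold change 0.94, SE 0.0926, edgeR adjusted p 2.48e-04), with the miR-155 site shown above. Against the empty vector in the fit of all 18 libraries of the batch, 12 genes of the actin list were lower with miR-133a, where 5.34% of 14054 genes tested were called (3.97% lower, 1.37% higher). With miR-155, where 7.63% were called (4.81% lower, 2.82% higher), 2 were lower and 10 higher. These 2 comparisons share the empty vector libraries. The median of the list was -0.0153 with miR-133a and 0.217 with miR-155, each against the empty vector. TPM4 had a log2 fold change of -0.78 with miR-133a (edgeR adjusted p 5.61e-07) and of 0.40 with miR-155 (edgeR adjusted p 9.49e-04) against the empty vector cells, which were at 254, 262 and 267 CPM between the groups. IQGAP1, a scaffold protein that binds actin, was at 121, 107 and 120 CPM with miR-133a and at 268, 227 and 263 CPM with miR-155 (log2 fold change -1.13, SE 0.0883).

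Genes of muscle differentiation were called in both directions. Of 38 in the list, 22 passed the filter on low counts, and 3 of these were lower and 4 higher, 31.8% called beside 16.7% of all genes tested, with a median of 0.0781. ACTA2, smooth muscle actin, was at 8.92, 9.70 and 10.1 CPM with miR-133a and at 24.0, 24.2 and 28.8 CPM with miR-155 (log2 fold change -1.42, SE 0.116, edgeR adjusted p 8.55e-05), with the empty vector cells between them at 16.7, 17.3 and 18.7 CPM. KLF15, a transcription factor of heart and muscle metabolism, was higher by 0.55 (26.6, 25.8 and 26.4 CPM against 17.5, 18.4 and 17.8 CPM). The 4 higher genes were 1 without any of the miR-133a libraries and 2 without miR-155 replicate 1 or 3, but 6 without miR-155 replicate 2, and the lower genes were 5 without that library. With the replicate block 5 were lower and 6 higher.

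Several genes of damage repair and growth arrest were lower with miR-133a than with miR-155. They are described gene by gene, as they were picked with their values known. DDB2, which recognises damage by ultraviolet light, was at 23.6, 25 and 24.9 CPM with miR-133a and at 51.3, 53.6 and 53.2 CPM with miR-155 (log2 fold change -1.11, SE 0.0758, edgeR adjusted p 4.45e-05). The empty vector cells were at 36.5, 37.2 and 34.5 CPM, between the groups, and each miRNA differed from them, with log2 fold changes of -0.56 for miR-133a (edgeR adjusted p 0.00572) and 0.55 for miR-155 (edgeR adjusted p 0.00440). CDKN1A, the cell cycle inhibitor p21, was at 56.5, 62.0 and 69.8 CPM against 104, 106 and 104 CPM (log2 fold change -0.73, SE 0.0848, edgeR adjusted p 5.27e-04), with the empty vector at 70.3, 71.5 and 76.3 CPM. BTG2, GADD45A, ZMAT3 and XPC, which act in growth arrest and repair, were lower, with log2 fold changes of -0.71, -0.68, -0.51 and -0.50. No 8mer or 7mer match of either miRNA was found in the annotated 3'UTR of these 6 genes.

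TNFRSF10B, a death receptor, held a miR-133a site and was at 107, 98.9 and 114 CPM against 184, 165 and 198 CPM (log2 fold change -0.78, SE 0.0892). PMAIP1, BAX and FAS, which promote apoptosis, were lower, with log2 fold changes of -0.37, -0.43 and -0.53. BAX lost the call without any 1 of the miR-133a libraries and FAS without miR-133a replicate 1 or 2. BCL2L11, which promotes apoptosis too, was higher, at a log2 fold change of 0.49 (edgeR adjusted p 0.00408). Of 29 tested apoptosis regulators, 5 were lower and 1 higher, 20.7% called beside 16.7% of all genes tested. The median of that list was -0.0186, and 8 were lower and 5 higher with the replicate block.

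Of 38 tested genes of cell cycle control, 8 were higher and 5 lower with miR-133a, 34.2% called beside 16.7% of all genes tested (8.13% higher, 8.59% lower). CCND1, or cyclin D1, was at 168, 175 and 170 CPM with miR-133a and at 86.2, 86.6 and 93.3 CPM with miR-155 (log2 fold change 0.94, SE 0.0671, edgeR adjusted p 4.49e-05), and its only match was a 7mer-A1 site for miR-155. Its partner CDK6 was higher by 0.52 (111, 96.7 and 103 CPM against 73.9, 67.5 and 74.3 CPM). E2F2 was higher by 0.67 and WEE1 by 0.60, both with a miR-155 site. CDKN2B, an inhibitor of CDK4 and CDK6, was lower, at a log2 fold change of -0.50, as were CDKN1A and CDKN2C (-0.61, lost without miR-133a replicate 1), while CDKN1C was higher by 0.98 at levels under 5 CPM and lost the call without miR-133a replicate 2 or 3 or miR-155 replicate 1. The lower genes were 2 without miR-133a replicate 1 and 3 without miR-133a replicate 3 or miR-155 replicate 1 or 3. The higher genes were 5 without miR-133a replicate 2 and 4 without miR-133a replicate 3. Of the immediate early genes in the MAPK list, JUND (-0.63), JUN (-0.52) and the phosphatase DUSP1 (-0.75) were lower with miR-133a, and DUSP4 was higher (0.54).

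Immune signalling genes separated the groups in a few members only. Of 37 tested genes of the NF-kB and innate pathways, 6 were higher and 2 lower with miR-133a, with a median of 0.0843. This was 21.6% called, beside 16.7% of all genes tested (8.13% higher, 8.59% lower). TRAF3, an adaptor of TNF receptors, was at 118 to 126 CPM with miR-133a and at 72.3, 61.3 and 78.8 CPM with miR-155 (log2 fold change 0.78, SE 0.0946, edgeR adjusted p 6.98e-04). TAB2 and its partner kinase MAP3K7, which relay signals to NF-kB, were higher by 0.54 and 0.41. TRAF3, TAB2 and MAP3K7 each held a miR-155 site. The other 3 higher genes, MYD88, IRAK1 and RELA, had log2 fold changes of 0.40, 0.31 and 0.30 and lost the call without miR-133a replicate 1 or 3, among others. The higher genes numbered 3 without miR-133a replicate 1 or 3, 4 without miR-133a replicate 2, and 8 without miR-155 replicate 2. The 2 lower genes, TIRAP (-0.48) and CHUK (-0.34), were not called without any 1 of the miR-133a libraries or without miR-155 replicate 1, nor TIRAP without miR-155 replicate 3. Fitted with the replicate block, 5 genes were lower and 8 higher.

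Of 34 tested genes of JAK-STAT signalling, 3 were higher and 2 lower, and of 32 tested interferon response genes, 2 were higher and 2 lower, counts near the share of all genes. With a library left out the lower genes were 1 to 6 and 1 to 4, most without miR-155 replicate 2, and the interferon response had no higher gene left without any 1 of the miR-133a libraries. With the replicate block 5 were lower and 5 higher in the first list, and 5 and 4 in the second. IL6R, the receptor of interleukin 6, was at 17.7, 20.5 and 19.4 CPM with miR-133a and at 13.6, 11.3 and 11.5 CPM with miR-155 (log2 fold change 0.65, SE 0.116), and LIFR was higher by 0.39. HERC6, an interferon-induced ligase, was lower, at a log2 fold change of -0.80 (9.21, 9.27 and 8.95 CPM against 14.7, 16.5 and 16.6 CPM). Of 36 tested genes of TGF-beta and SMAD signalling, 6 were higher and 5 lower, 30.6% called beside 16.7% of all genes tested. The higher genes held SKI, SMAD5 and SMAD9, the last at 0.43, and the activin subunits INHBB (1.23) and INHBE (1.15). The largest changes among the lower genes were those of CCN2 (-1.42) and TGFB2 (-0.84, edgeR adjusted p 0.0166). CCN2 had 12, 22 and 18 reads in the miR-133a libraries and lost the call without miR-133a replicate 1. For TGFB2 the fits without a library are not given here. The lower genes also held SKIL (-0.50), a paralogue of SKI without an 8mer or 7mer-m8 site, and TGFBR3 (-0.46). SMAD5, a transducer of BMP signals, was at 182, 168 and 168 CPM with miR-133a against 110, 90.0 and 118 CPM with miR-155 (log2 fold change 0.70, SE 0.0998). The higher genes were 11 without miR-155 replicate 2 and 11 with the replicate block, and the lower genes 3 without miR-133a replicate 1.

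Antioxidant and iron genes were examined because BACH1 and FTL lie on opposite sides of the comparison. BACH1 is known to repress HMOX1, FTL and other genes of the NRF2 programme. Of 30 tested genes of that programme, 4 were lower and 3 higher with miR-133a, 23.3% called beside 16.7% of all genes tested. The median was -0.00282. GSTP1 and FTL, both with a miR-133a site, were the largest changes among the lower genes. HMOX1, heme oxygenase, had 14.8, 14.6 and 14.9 CPM with miR-133a and 21.3, 33.2 and 21.4 CPM with miR-155 (log2 fold change -0.78, SE 0.166, edgeR adjusted p 0.0120), and it lost the call without any 1 of the miR-133a libraries and in the fit of all 18 libraries. Its highest value was again that of miR-155 replicate 2. TXNRD1, thioredoxin reductase, was higher by 0.33, a call lost without miR-133a replicate 1 or 3. The lower genes of the programme were 1 without any of the miR-133a libraries, 2 without miR-155 replicate 1 and 9 with the replicate block. Of 22 tested genes of iron handling, FTL and HMOX1 were lower and SLC11A2, an iron transporter with a miR-155 site, was higher by 0.60 (69.6, 60.6 and 69.2 CPM against 42.2, 39.6 and 49.1 CPM). The 3 called genes were 13.6% of the list, beside 16.7% of all genes tested, but 5 were lower and 6 higher with the replicate block and 5 were higher without miR-155 replicate 2.

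In metabolism and organelles, single genes separated the groups. HMGCS1, the synthase of HMG-CoA in cholesterol synthesis, was at 273, 238 and 276 CPM with miR-133a and at 119 to 151 CPM with miR-155 (log2 fold change 0.96, SE 0.101, edgeR adjusted p 3.26e-04). SQLE, a later enzyme of the same pathway with a miR-133a site, went the other way, at 90.4, 96.1 and 99.9 CPM against 156, 163 and 172 CPM (log2 fold change -0.78, SE 0.0722). These 2 enzymes of 1 pathway were thus on opposite sides, each with a site of the miRNA under which it was lower. Of the 27 tested genes of the pathway, 3 were lower and 2 higher, 18.5% called beside 16.7% of all genes tested. The pathway had 1 lower gene without miR-133a replicate 1 or 3, 6 higher without miR-155 replicate 2 and 5 higher with the replicate block. The glucose transporter SLC2A3 was lower, at a log2 fold change of -0.82 (13.6, 13.6 and 14.1 CPM against 24.7, 24.9 and 23.2 CPM). The empty vector cells, at 11.3, 8.04 and 10.9 CPM, were below both groups for SLC2A3. Hexokinase 2 (HK2) was higher by 0.52. Among the genes of lysosomes, ATP6AP2 was lower, at a log2 fold change of -0.96 with a miR-133a site, and the proton pump subunit ATP6V1C1 was higher by 1.09 (65.9, 57.9 and 60.8 CPM against 28.7, 31.9 and 25.8 CPM). None of 36 tested nuclear genes of oxidative phosphorylation passed the edgeR test in either direction (2 lower and 0 higher at an unadjusted p under 0.05). With the DESeq2 Wald test 0 passed, and with the replicate block 8 were lower and 1 higher. Without miR-155 replicate 2, 0 were lower and 3 higher, and the median of the list went from -0.0644 to 0.059. Without both libraries numbered 2, 5 were lower and 3 higher.

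Of the remaining lists, the share called was 26.5% for collagens, laminins and integrins, 22.7% for the Hippo pathway and 28.6% for growth factor receptors. It was 6.02% for cytosolic ribosomal proteins and 17.6% for heat shock and ER stress, beside 16.7% of all genes tested (8.59% lower, 8.13% higher). Collagens, laminins and integrins had 7 lower and 2 higher of 34, with the integrins ITGA3 (-1.11) and ITGB8 (-0.86) lower and COL23A1 higher (2.29). COL23A1 rested on few reads, 8, 3 and 7 in the miR-155 libraries. The lower genes of this list were 4 without miR-133a replicate 2 or 3 and 15 without miR-155 replicate 2. The counts with the replicate block were 11 lower and 6 higher. The Hippo pathway had 5 lower genes of 22, among them the kinases STK4 and STK3, orthologues of the Hippo kinase itself, both at -0.49, and the lower genes were 3 without any 1 of the miR-133a libraries. Growth factor receptors had 2 lower and 6 higher of 28, 3 to 7 higher with a library left out, and 4 lower and 8 higher with the replicate block, with FGFR3 at 69.4, 64.2 and 76.2 CPM with miR-133a against 32.7, 23.6 and 30.2 CPM with miR-155 (log2 fold change 1.27, SE 0.123, edgeR adjusted p 2.29e-04). LIN28B, which blocks the maturation of let-7, was lower with miR-133a than with miR-155, at a log2 fold change of -0.70 (57.7, 52.5 and 52.2 CPM against 90.6, 86.0 and 86.8 CPM) although it held 3 miR-155 sites and for miR-133a only a 7mer-A1 site, and the empty vector cells, at 117 CPM or more, were above both. Cytosolic ribosomal protein genes had 1 lower and 4 higher of 83, but 44 higher without miR-155 replicate 2 and 23 higher with the replicate block, and heat shock and ER stress genes 5 higher of 34 but 16 without that library. Without any other library the higher genes were 2 in the first list and 1 or 2 in the second. The higher heat shock genes were 14 with the replicate block. The lists for splicing regulators, PRC2, PI3K and mTOR, MAPK, apoptosis, DNA repair, glycolysis, purines, autophagy and miRNA machinery each held at most 5 lower and at most 4 higher genes, and 0 to 9 in either direction with a library left out. The block gave these lists 1 to 10 lower and 2 to 10 higher genes, with the most in MAPK (10 lower, 8 higher) and in PI3K and mTOR (7 lower, 10 higher).

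**Figure D3:**
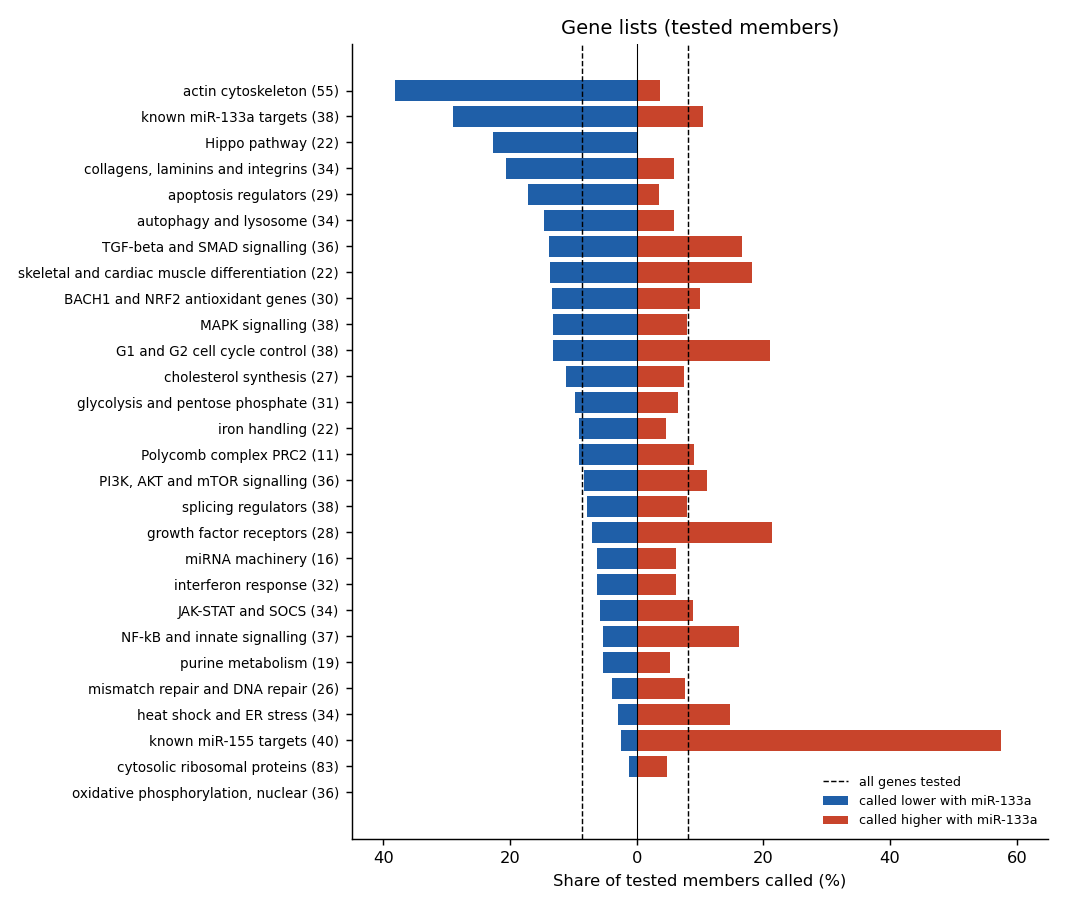
Share of the tested members of each list that passed the edgeR test, lower with miR-133a to the left (blue) and higher to the right (red); the number tested is in brackets and the dashed lines mark the shares over all genes tested, 8.59% and 8.13%. Of the lists drawn, the actin cytoskeleton and the known miR-133a targets extend furthest to the left and the known miR-155 targets furthest to the right.

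Genes were also grouped by the letters of their symbol, which gave 65 families with at least 20 tested members. Zinc finger genes named ZNF, mostly putative transcription factors, were the largest family. Of 438 tested, 42 were higher and 8 lower with miR-133a (8.13% and 8.59% of all genes), with a median of 0.104. The 301 without a site of either miRNA had a median of 0.066 (20 higher, 4 lower), and the 82 with a miR-155 site only one of 0.174 (19 higher, 2 lower). The higher ZNF genes were 15 without miR-133a replicate 1 or 3, 21 without miR-133a replicate 2, 23 without miR-155 replicate 1, 27 without miR-155 replicate 3, 73 without miR-155 replicate 2 and 93 with the replicate block. CFAP genes, of cilia and flagella, had 6 lower genes of 20 (10 with the replicate block), with a median of -0.36, and the lower genes were 2 or 3 in each fit without a library apart from that without miR-155 replicate 2, which gave 7. Both families were picked after their values were seen. TMEM genes, which share only the word transmembrane in their name, had 26 lower and 6 higher of 169, 18.9% called beside 16.7% of all genes tested.

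To ask how far the difference between the miRNAs followed their seeds, the 12692 tested genes with an annotated 3'UTR were divided by 8mer and 7mer-m8 sites. The 921 genes with sites of miR-133a only were shifted down, with a median log2 fold change of -0.116 and quartiles of -0.344 and 0.085. Of these, 204 (22.1%) were lower and 47 (5.10%) higher. The 1421 genes with sites of miR-155 only were shifted up, with a median of 0.119 and quartiles of -0.0602 and 0.313, and 313 (22%) were higher and 58 (4.08%) lower. The 10107 genes with neither had a median of -0.0144, and 8.18% were lower and 6.58% higher. The 243 genes with sites of both miRNAs lay between, with a median of 0.0374, and 33 were lower and 42 higher. The direction of the last group changed in the middle tertile of 3'UTR length, where 34 genes lay 0.0603 below the genes with neither.

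The shift grew with the strength of the match. Among genes without a site of the other miRNA, the median was -0.202 for 304 genes with a miR-133a 8mer, -0.0806 for 510 with a 7mer-m8 as the best match, -0.0779 for 679 with a 7mer-A1 and -0.034 for 1092 with a 6mer. For miR-155 the medians were 0.180 for 447 genes with an 8mer, 0.093 for 731 with a 7mer-m8, 0.0733 for 579 with a 7mer-A1 and 0.0259 for 933 with a 6mer. The order was thus the same for both seeds, and an 8mer of miR-133a came with 32.2% of genes lower and one of miR-155 with 31.1% higher. With more than 1 site the measures parted for miR-133a. The median went from -0.111 (750 genes) to -0.185 (64 genes), but the lower quartile from -0.349 to -0.306 and the share called lower from 22.7% to 18.8%, and among the 7 genes with several miR-133a 8mers 0 were called lower and 1 higher. For miR-155 the median went from 0.118 (994 genes) to 0.165 (184 genes) and the share called higher from 21.6% to 31.0%.

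Seeds of miRNAs that neither vector carried gave a background. Among genes with neither own site, those with sites of miR-1, miR-122 and miR-302a had medians of 0.00154 (1213 genes), 0.00453 (825 genes) and -0.00673 (2275 genes), close to the -0.0144 of all genes with neither. Within tertiles of 3'UTR length, the miR-133a only genes lay at -0.152, -0.146 and -0.0733 from the shortest to the longest tertile, and the miR-155 only genes at 0.121, 0.129 and 0.107, while genes with neither lay at -0.0318, -0.0149 and 0.0158. Sites in the coding sequence, in genes without a 3'UTR site, went with smaller shifts. The median was -0.0347 for 1167 genes with a miR-133a site there and 0.0316 for 529 genes with a miR-155 site, against -0.0156 for 8247 genes with no site in either region.

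**Figure D4:**
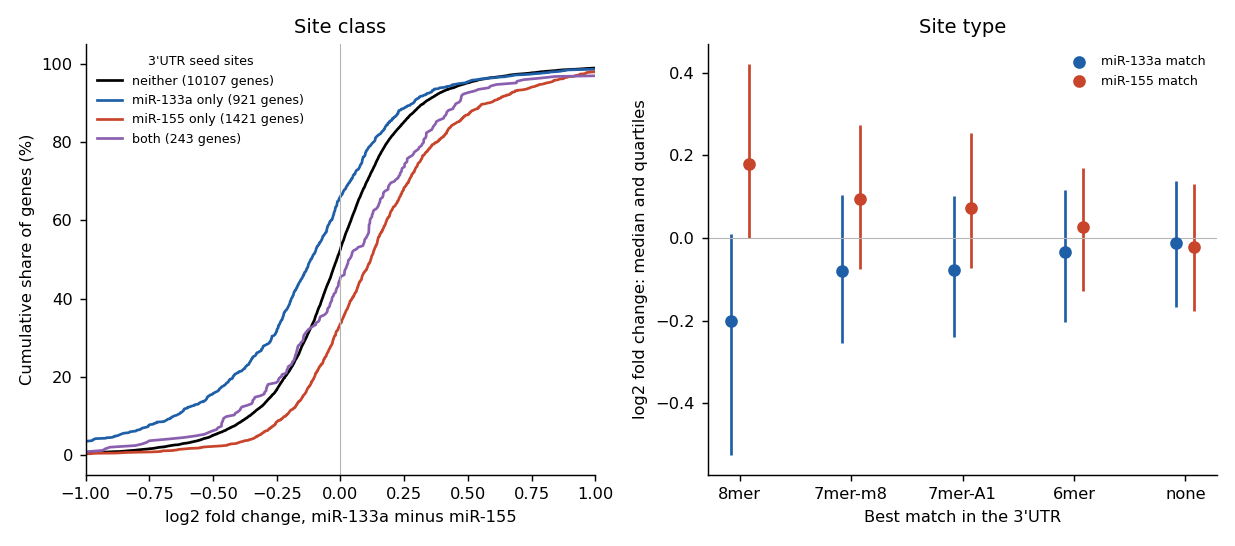
Left, cumulative share of genes (%) by log2 fold change of miR-133a minus miR-155 for the 4 classes of 3'UTR sites; the miR-133a only curve lies to the left of the genes with neither site and the miR-155 only curve to the right. Right, median (point) and quartiles (line) of the log2 fold change by the best match in the 3'UTR, among genes without a site of the other miRNA; the medians move away from 0 from no match to the 8mer.

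The site classes separated the libraries one by one as well. The log2 CPM of each gene was taken as a deviation from its mean over the 6 libraries, and the median over a class was set against the median over genes with neither site. For genes with miR-133a sites only this was -0.0434, -0.0789 and -0.0329 in the miR-133a libraries and 0.0882, -0.00444 and 0.101 in the miR-155 libraries. For genes with miR-155 sites only it was 0.0918, 0.0468 and 0.0642 with miR-133a and -0.0491, -0.120 and -0.0473 with miR-155. The groups did not overlap in either class, and in both groups replicate 2 was the lowest library in both classes. The values of a gene sum to 0 over the libraries, so the 6 values are not independent.

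**Figure D5:**
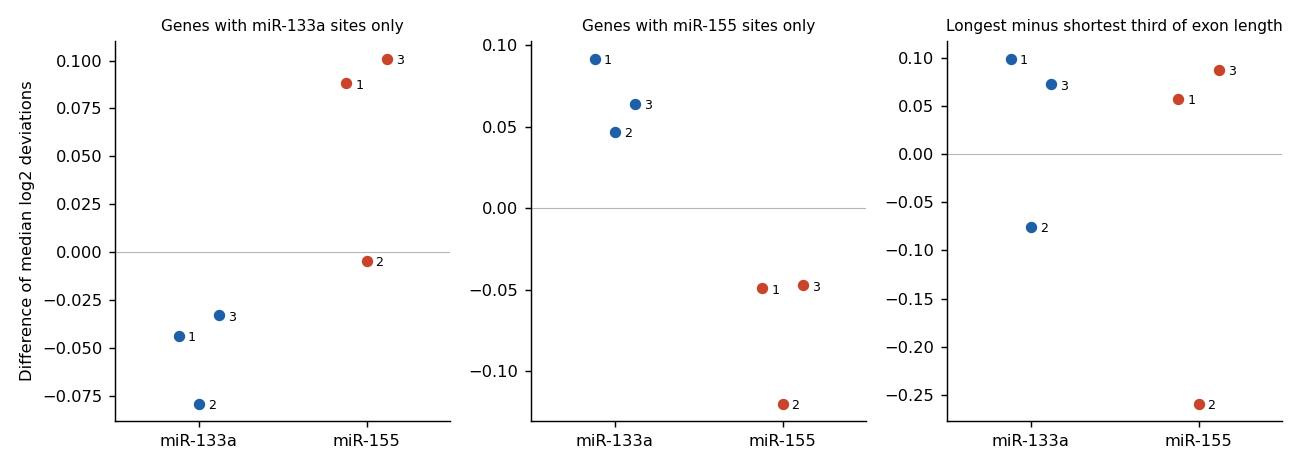
Each point is a library, numbered by replicate, and the vertical axis gives the difference of median log2 deviations: left and middle, genes with sites of one miRNA only minus genes with neither; right, the top minus the bottom tertile of genes by exon length. The miR-133a and miR-155 libraries do not overlap in the left and middle panels, whereas in the right panel the libraries numbered 2 are low in both groups.

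Sites were present in a minority of the called genes. Of the 1122 lower genes with an annotated 3'UTR, 237 (21.1%) held a miR-133a site, against 7.98% of the genes not called, and of the 1067 higher genes 355 (33.3%) held a miR-155 site, against 11.6%. Among the 93 lower genes with a 3'UTR and a change of at least 1 on the log2 scale, 30 (32.3%) held a miR-133a site, and among the 153 higher genes of that size 33 (21.6%) held a miR-155 site. Thus 827 lower and 665 higher genes held no 8mer or 7mer-m8 site of either miRNA.

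The level in the empty vector cells showed which miRNA group stood apart for a called gene. Because the called genes were chosen on the miRNA libraries themselves, these shares are a description. For the 204 lower genes with miR-133a sites only, the empty vector mean lay nearer to miR-155 in 177 (86.8%), and for the 313 higher genes with miR-155 sites only it lay nearer to miR-133a in 283 (90.4%). For the called genes with neither site these shares were 427 of 827 (51.6%) and 370 of 665 (55.6%), beside 46.7% and 53.3% of all genes tested. Without empty vector replicate 1 the last share was 63.6%. For the called genes without a site the empty vector lay between the 2 group means in 79.0% of the lower and 82.3% of the higher ones.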

How the data were processed

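Libraries of polyadenylated RNA were strand-specific. The authors clipped adapters, used TopHat 2.1.1 for alignment to hg19 and counted uniquely mapped reads by strand over the exons of each gene with featureCounts, and deposited these raw counts per gene. Feature lengths, a column of the deposited table in another unit (bases), were used only to sort genes by exon length. Authors' tables of fold changes and p-values, and the batch 1 counts, were not used. Every per-sample column of the batch 2 table was mapped.

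Genes were matched by identifier to GENCODE on GRCh37 (28543 of 29794), and the longest annotated 3'UTR was searched for seed matches. The tests used edgeR 4.0.16 under R 4.3.3. Genes were kept by filterByExpr (minimum count 10), TMM factors computed, and the 6 libraries fitted with group as the only factor (quasi-likelihood, Benjamini-Hochberg over all genes tested, threshold 0.05, prior count 0.125). SE was taken as the size of the log2 fold change divided by the root of the F statistic. CPM were scaled over the 18 libraries of the batch, as were the fits against the empty vector. In simulated counts with 13456 genes for this comparison, 98% of changes of 1 and 70% of changes of 0.5 on the log2 scale were recovered. Of the unchanged genes, 12 were called. The changes were put only into genes above a floor on mean CPM, so these shares do not cover genes of lower level. The simulated libraries were drawn independently, without the length trend of the libraries numbered 2.

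Named genes were the 8 lowest and 8 highest called genes (mean log2 CPM of at least 1, groups not overlapping), up to 3 called members per list and direction, the tested known targets, and others named where a description needed them after their values were seen. The comparison, its members and the lists were chosen with earlier results of these data known. Counts and medians of lists and site classes are descriptions without a test. Same-numbered libraries deviated together from their group means (Pearson r across genes of 0.216, 0.398 and 0.238), and r was -0.303 to 0.111 for libraries of unlike number. The labels do not say what a replicate number shares. The block is therefore an alternative that treats the number as a pairing, and its counts are given beside the results it moved most. The SEs and p-values of the main test take no account of such a pairing. Alternatives were DESeq2 size factors, DESeq2 1.42.0 (Wald test), edgeR's likelihood ratio test, other filters, all 18 libraries, the block, a minimum fold change, other site definitions and leaving out each library. Leaving out both libraries numbered 2 was added after the data were seen. Reads that map to several copies of a gene were left out by the authors' mapping filter, so levels of genes with near-identical copies are uncertain. Some results are not reported here, including those of 2 of the gene lists.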

Additional observations from a re-analysis of the deposited data

How the results depend on the processing

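Of 104 values of the comparison under alternatives, 77 kept their direction and stayed within 1.5 times the count or within the spread between libraries. With the replicate block, 4485 genes were called (2258 lower, 2227 higher), and without both libraries numbered 2, which was added once the data were known, 4533 (2263 lower, 2270 higher). With a library left out, the counts ranged from 980 to 4302 in all, from 456 to 2232 lower and from 473 to 2070 higher. DESeq2 size factors, the DESeq2 Wald test, the likelihood ratio test, other filters on low counts, the fit of all 18 libraries and a minimum log2 fold change of 0.2 kept each count within 1.5 times.

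With 8mer sites only, the median differences from genes with neither site were -0.176 for miR-133a and 0.182 for miR-155. For miR-155 the difference was 0.091 in the longest tertile of 3'UTRs. For genes with sites of both miRNAs it was 0.176 in the shortest tertile, which held 2 such genes, and -0.0603 in the middle tertile. Leaving out an empty vector library, the empty vector lay nearer to miR-133a for 65.5% to 72.6% of the higher genes, highest without replicate 1. The cause was not tested.

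Of 620 list counts under alternatives, 253 moved by over 1.5 times, and of 2884 values of single genes 211 lost and 48 gained a call and 0 reversed. Of 206 called genes of the lists and of the largest changes, 114 were called in each of the 6 fits without a library. Beyond the calls and counts given in the text, the block turned no direction of a called gene. With 3 libraries a group, genes not called are not shown to be equal.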
